A study of Mus musculus with 2 samples.

Results

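The Srsf, Rbm and Hnrnp genes, the families of splicing and RNA-binding factors, were compared between unfertilised oocytes of wild-type and Mul1 knockout mice. Members were chosen by name, as every gene name on the array that starts with Srsf or Rbm followed by a digit, or with Hnrnp. This gave 70 gene names (11 Srsf, 39 Rbm and 20 Hnrnp) of 37074 on the array, carried by 167 of 56600 gene probes. A gene was measured where at least 1 of its probes was well above background on both arrays, a call made by the scanner software, and 66 of the 70 were measured, against 22921 of all gene names. The names were taken up with earlier results of these data known, and the measured signal decided which probes entered, so the counts below describe the members and are not tests.

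The wild-type group was MUL1 +/+ and the knockout group MUL1 -/-, both of strain C57BL/6, with no treatment named in the labels. RNA of 213 pooled wild-type oocytes and of 123 pooled knockout oocytes was amplified from low input and read in 1 colour, Cy3, on 1 Agilent array each, both on 1 slide. Mul1 encodes a ubiquitin ligase of the mitochondrial outer membrane, and the labels name neither the deleted part of the gene nor the age of the animals. With 1 array per genotype there is no replicate, so no test, p-value or spread between animals can be given, and precision is limited by the single array of each group.

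Pre-mRNA splicing removes introns in the spliceosome, and the proteins of these families bind the transcript and steer which splice sites are used. SR proteins (Srsf) carry a domain rich in arginine and serine and mostly promote the use of nearby sites, hnRNP proteins (Hnrnp) coat nascent transcripts and often repress sites, and the Rbm names mostly stand for proteins that share an RNA recognition motif. The rule also takes in Rbm3os and Rbm46os, noncoding transcripts of the strand opposite to the genes they are named for. A fully grown oocyte transcribes little and relies on stored RNA. Markers of other cells were measured on both arrays as well, as given below, so the signals cannot be taken as oocyte RNA alone.

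A difference below is the log2 signal of the knockout array minus that of the wild-type array, each relative to the 75th percentile of its own array, and a gene is the mean of its probes well above background on both arrays. Raw signals are in the scanner's processed intensity units, and for a gene with several probes they are geometric means. Brightness depends on the probe, so signals of different probes say nothing about which transcript is the more abundant. The error that the scanner software assigns to the signals gives the difference of a member probe an error of 0.20 to 0.33, with a median of 0.20. This error is assigned by the software and is not a measured spread between spots. For probes printed at several spots, the SD of the difference between spots had a median of 0.04. Neither covers the oocytes.

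In 6 genes the probes themselves lay at least 1 log2 unit apart in their difference, and the probes at both ends of that range are shown because most of what follows rests on them. Each probe is 60 bases long and matches the sense strand. Its first 30 bases are printed 5′ to 3′, with G and C in capitals, and its position is that of the whole probe on mouse build mm9. The probe of Rbm25 with the highest difference crosses a splice junction and so covers a longer interval, and the probes inside that interval are shown beside it. Whether a probe lies in an exon, intron or untranslated region was not analysed here.
Rbm39, ENSMUST00000140001 (lowest), chr2:155996004-155996063, minus strand: aGttttCttaaCtGGGGtGaattaaataGG
Rbm39, ENSMUST00000152919 (highest), chr2:156003438-156003497, minus strand: taGaGCCatGGtaCCGaCaaaaGGGaCaat
Rbm25, ENSMUST00000183242 (lowest), chr12:85000257-85000316, plus strand: CtGGtGattaGGttttGtaGtataGCtatC
Rbm25, ENSMUST00000182255 (inside the interval), chr12:85002423-85002482, plus strand: GtGCatGatGtattttGatGttaGaGGtaa
Rbm25, ENSMUST00000182255 (inside the interval), chr12:85004715-85004774, plus strand: taaGGttGaaGattCCtGGtttGtGtaGaG
Rbm25, NM_027349 (highest, across the junction), chr12:85001574-85004933, plus strand: aGaCaaaaGaGatttGatatCCCGaGaGat
Rbm6, ENSMUST00000182445 (lowest), chr9:107771172-107771231, minus strand: tCtGCaaGaGtaGttaGtaGtCattCttaa
Rbm6, NM_029169 (highest), chr9:107675948-107676007, minus strand: GaGaCaCCCCGCaGGaCaCaatttCCtCtt
Rbm33, ENSMUST00000030920 (lowest), chr5:28681596-28681655, plus strand: ttCCtCtaaaaaGGaatGaGtGCatttttG
Rbm33, NM_028234 (highest), chr5:28742398-28742457, plus strand: GCtGCaaCCattatCtCtGttCtttGtGta
Rbm26, AK049083 (lowest), chr14:105515440-105515499, minus strand: CaGaGtGCaatGtttCCaaGtaaCaCtaGC
Rbm26, NM_134077 (highest), chr14:105516204-105516263, minus strand: CaaaCCaataGCtaaCatGtCaGCtGtGGa
Hnrnpm, ENSMUST00000127598 (lowest), chr17:33813945-33814004, minus strand: tttaCtGGCttaatatGGttattGGGaCGC
Hnrnpm, NM_029804 (highest), chr17:33783252-33783311, minus strand: attaattttttaatGattGGGGttCCattt

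Over all 60 bases, the lowest probe held less G and C than the highest in Rbm39 (35.0% and 40.0%), Rbm25 (35.0% and 36.7%), Rbm6 (38.3% and 41.7%) and Rbm26 (41.7% and 45.0%). Both probes of Rbm33 had 35.0%, and in Hnrnpm the lowest had more (38.3% and 35.0%). The part of base composition in the differences was not tested. No member probe shared a stretch of 30 bases with a probe of another gene name.

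The labels and the cells were checked first. At the NM_026689 probe of Mul1 the signal was 3353 in wild type and 1074 in the knockout, a difference of -1.61, so it was lower but still 67.9 times the detection limit of the knockout array, and at its ENSMUST00000105815 probe it was 19.3 and 23.1. Of the 14 oocyte markers, 13 were measured (Figla was not), with a median difference of 0.08 and a summed level, in multiples of the 75th percentile, of 167 and 157. Markers of cumulus and granulosa cells were present as well, all 13 measured, with summed levels of 288 and 310 and a median of 0.16. Of them 3 were at least 1.5-fold higher on the knockout array (Has2, Ptx3 and Cyp19a1), against 7.84% of all genes. Lower by that much were 2 (Star and Amh), against 5.19%. All 13 macrophage and neutrophil markers lay at least 1.5-fold higher on the knockout array (median 1.82, summed levels 14.7 and 47.5), all 5 red cell markers at least 2-fold lower (median -1.39, summed levels 74.1 and 24.4), and 3 of 7 markers of oviduct epithelium and endothelium at least 2-fold higher (summed levels 97.4 and 153). No list had all its markers below background. Their part in the results below was not tested, and in pooled material fewer cells of a type and less RNA per cell cannot be told apart.

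Most members lay slightly lower on the knockout array, and none reached a 2-fold difference as a gene. Below 0 lay 47 of the 66 measured members, or 71.2%, where 45.2% of all measured genes lay below 0. The median difference was -0.16 for the 11 Srsf genes, -0.15 for the 35 measured Rbm genes and -0.04 for the 20 Hnrnp genes, against 0.03 for all genes. Below 0 were 8 of 11 Srsf, 25 of 35 Rbm and 14 of 20 Hnrnp genes. The Srsf and Rbm medians were thus close to each other and the Hnrnp median nearer to 0. The middle 50% of the genes ran from -0.29 to -0.01 in Srsf, from -0.33 to 0.05 in Rbm and from -0.22 to 0.02 in Hnrnp, and these ranges overlap one another and the range of all genes, -0.16 to 0.22. The share below 0 and the sign of the Hnrnp median depended on the scale. With the arrays set to their spike-in controls every difference moved up by 0.11, so that members between -0.11 and 0 turned positive. Then 34 of 66 members lay below 0, against 30.1% of all genes, and the median of all genes was 0.14. The families moved to -0.05 for Srsf, -0.04 for Rbm and 0.07 for Hnrnp. Because every gene moved by the same amount, their place below the median of all genes could not change.

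**Figure D1:**
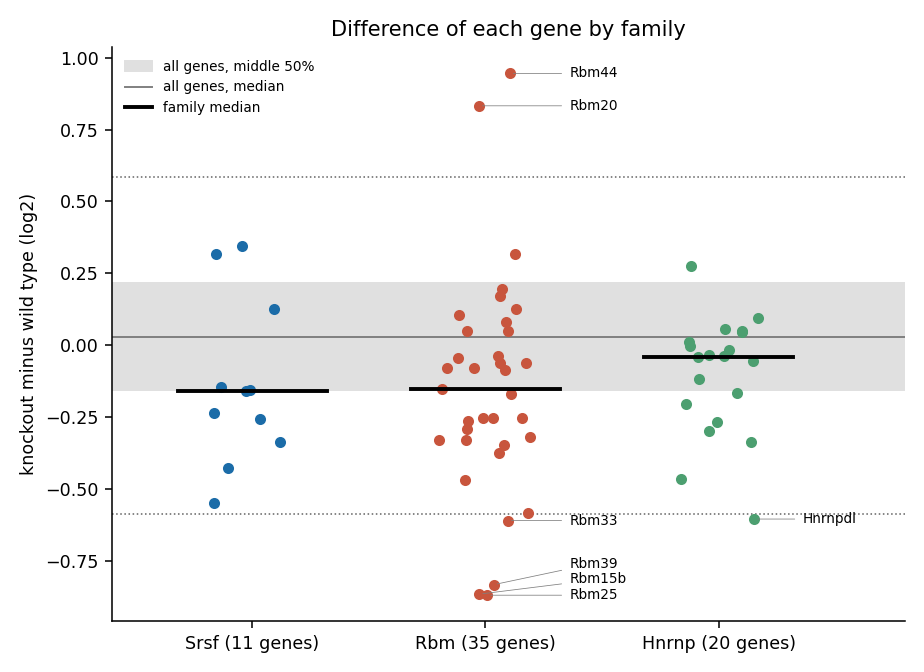
Difference of each measured gene (knockout minus wild type, log2; vertical axis) in the Srsf, Rbm and Hnrnp families; each point is 1 gene, the black bar the family median, the grey band and line the middle 50% and median of all genes, and the dotted lines mark 1.5-fold. Most points lie below the line for all genes, and the 7 labelled genes, 6 of them Rbm, lie beyond a dotted line.

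At least 1.5-fold apart were 7 members, 5 of them lower and 2 higher on the knockout array, where 5.19% of all genes were lower by that much and 7.84% higher. None of them was an Srsf gene. The lower ones were Rbm25, Rbm15b, Rbm39, Rbm33 and Hnrnpdl, of which the first 3 remained on the spike-in scale, and the higher ones Rbm44 and Rbm20. At 2-fold the count of members was 0 in both directions, and the array as a whole had 1.37% of genes lower and 2.92% higher. Rbm6 was just outside the 1.5-fold limit with -0.58 and Rbm33 just inside with -0.61.

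Among the SR proteins, Srsf5 and Srsf11 lay lowest. Srsf5 read 9894 in wild type and 6617 in the knockout, a difference of -0.55 or 1.46-fold lower. Its 3 probes read -0.65, -0.51 and -0.48, so they lay close together and all below 0. Srsf11, an SR protein that contacts early splicing factors, read 2057 and 1498, a difference of -0.43, but its 6 probes ran from -1.00 to -0.04. The remaining Srsf genes lay between -0.34 and 0.34.

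Srsf7, which also serves as an adaptor for mRNA export, read 11319 and 8771, a difference of -0.34 at its only probe. Srsf3, the smallest SR protein and likewise an export adaptor, read 8509 and 6975, a difference of -0.25 with probes at -0.36 and -0.14. Srsf6 read 12562 and 10426, a difference of -0.24 with probes at -0.26 and -0.21. In all 3 every probe lay below 0, from -0.14 to -0.36, sizes on either side of the scanner's error. Srsf2 (SC35, a classical marker of nuclear speckles) read 529.9 and 464.4, a difference of -0.16. Srsf10, a repressor that is dephosphorylated under heat shock, read 637.1 and 559.3, also -0.16. Srsf4 read 5557 and 4912, a difference of -0.15. These 3 differences were smaller than the scanner's error of a single probe, but those of Srsf2 and Srsf10 are means of 2 probes.

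Higher on the knockout array were Srsf9, Srsf1 and Srsf12. Srsf9 read 11292 and 12048, a difference of 0.13. Srsf1, the founding SR protein, read 4726 and 5765, a difference of 0.32 at its only measured probe. Srsf12, a tissue-restricted member known to act as a repressor, read 94.0 and 117, a difference of 0.34. Srsf1 and Srsf12 each had a further probe that was not well above background on either array, so neither value has a second probe to set beside it.

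**Figure D2:**
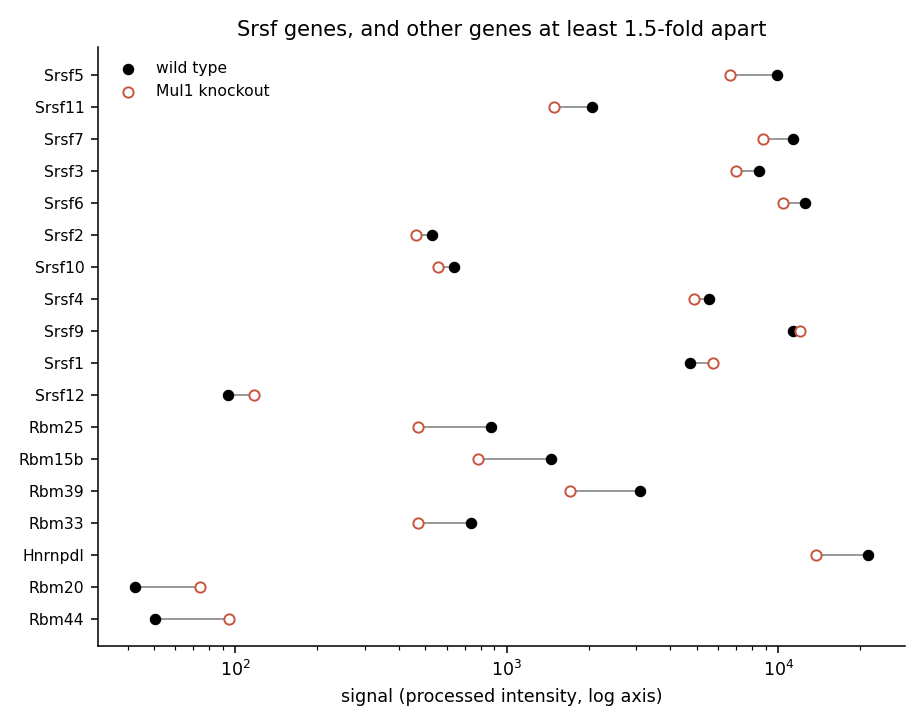
Signal on the wild-type array (filled) and the knockout array (open) for the 11 Srsf genes and the 7 other members at least 1.5-fold apart; the horizontal axis is processed intensity on a log axis, and a point is the geometric mean of the gene's measured probes. Of the Srsf genes 8 lie to the left on the knockout array, and Rbm20 and Rbm44 are the faintest genes drawn.

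Of the Rbm genes at least 1.5-fold apart with several measured probes, Rbm15b was the one in which all probes gave the same size of difference. Rbm15b, a protein of the spen family that with Rbm15 guides the m6A methylation machinery to its RNA targets, read 1455 in wild type and 781.5 in the knockout, a difference of -0.86 or 1.82-fold lower. Its 3 probes lay between -0.98 and -0.76, at signals that ran from 412.6 to 7449 on the wild-type array, so dim and bright probes gave like values. Rbm15, its relative, read 2589 and 2424, a difference of -0.06.

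Rbm25 and Rbm39 gave gene values of the same size from probes that did not agree. Rbm25, a regulator of alternative splicing that works with the U1 particle, read 877.3 and 469.9, a difference of -0.87 over 5 probes from -1.89 to -0.24. Rbm39, a relative of the splicing factor U2AF, read 3100 and 1703, a difference of -0.83 over 8 probes from -2.00 to -0.05. In both genes every probe lay below 0, and the probes differed by far more than the scanner's error. At the probe of Rbm39 nearest its 3′ end, named for NM_133242, the signal was 35874 and 23441, a difference of -0.58, and at the ENSMUST00000140001 probe printed above it was 1383 and 339, a difference of -2.00.

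The same held for Rbm33, Rbm6 and Rbm26. Rbm33, a partner of the m6A demethylase Alkbh5, read 736 and 471.9, a difference of -0.61, with probes at -1.27, -0.42 and -0.14. Rbm6, a regulator of alternative splicing, read 250.3 and 163.4, a difference of -0.58, with probes at -1.34, -0.59, -0.43 and 0.03. Rbm26, which acts in nuclear RNA decay, read 1268 and 1033, a difference of -0.26, with 3 probes between -0.08 and 0.07 and the fourth at -1.01. In each of these genes the low value came from some probes only, and the probe with the highest difference lay within 0.14 of 0.

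The 2 higher Rbm genes were faint. Rbm44, which is expressed in germ cells, read 50.4 and 94.8 at 1 of its 3 probes, a difference of 0.94. Rbm20, the regulator of titin splicing in heart muscle, read 42.5 and 74.0 at 1 of its 2 probes, a difference of 0.83. In wild type these signals were 3.92 and 3.31 times the detection limit of that array, 12.9, which is its lowest signal with the call well above background. With the dim probes included the sign of both turned, to -0.30 for Rbm44 and -0.13 for Rbm20. Rbm3, a cold-shock protein, was the next highest, at 9958 and 12144, a difference of 0.32 with probes at 0.16, 0.39 and 0.40.

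Other Rbm genes are given by their kinship or role. Rbm5 and Rbm10, which share their domain layout with Rbm6, differed by -0.17 and 0.13. Rbm27, the relative of Rbm26, differed by -0.32, with probes at -0.39 and -0.24, somewhat farther from 0 than Rbm26. Rbm8a, a core protein of the exon junction complex, differed by -0.08, the spliceosome proteins Rbm17 and Rbm22 by -0.06 and -0.04, and Rbm7, an adaptor of the nuclear exosome, by 0.05. Among the nucleolar proteins Rbm28 differed by -0.08, Rbm34 by -0.33 and Rbm19 by -0.33, the last from probes at -0.66 and 0.01. Rbm3os read 71.1 and 67.8, a difference of -0.04. Rbm11, Rbm24, Rbm46 and Rbm46os had no probe well above background on either array. Rbm46 is known for its part in germ cell meiosis and Rbm24 for muscle splicing.

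The Hnrnp genes were the nearest to all genes, and 2 of them carried the low end. Hnrnpdl, a binder of AU-rich RNA, read 21489 and 13828 at its only probe, a difference of -0.60 or 1.52-fold lower. Hnrnpd (AUF1), its neighbour on chromosome 5 and a close relative, read 3791 and 3855, a difference of 0.06 with probes at -0.04 and 0.16. The neighbours thus parted by more than the scanner's error. Hnrnpm, which binds GU-rich RNA, read 1454 and 1030, a difference of -0.47 (unrounded -0.465), with probes at -1.18, -0.22 and 0.01.

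Hnrnpc, which packages nascent RNA as a tetramer, read 20142 and 15593, a difference of -0.34, and its 3 probes kept together between -0.44 and -0.26. Hnrnpu, a scaffold attachment factor, differed by -0.30, from 1 probe at -0.85 and the others at -0.05 and 0.00. Hnrnpa1 differed by -0.20, with probes at -0.52, -0.11 and 0.02. Hnrnpa3 was the highest of the family, at 5381 and 6365, a difference of 0.28 with all 3 probes above 0, from 0.17 to 0.47. The remaining members, among them Hnrnpk, Hnrnpf, Hnrnph1, Hnrnpa2b1 and Hnrnpab, lay between -0.27 and 0.09.

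Probes were then compared within genes. Of the 46 members with at least 2 measured probes, 6 had probes at least 1 log2 unit apart (Rbm39, Rbm25, Rbm6, Rbm33, Rbm26 and Hnrnpm), where 7.28% of the 8023 such genes on the array did. The share in the members was thus larger than over the array. A range grows with the number of probes, however, from 3 in Rbm33 to 8 in Rbm39, and that number was not matched. The median range between probes of a gene was 0.22 in the members and 0.24 in all genes. At the level of single probes, 9 of 152 member probes lay at least 2-fold lower, 8 of them in Rbm genes and 1 in Hnrnpm, against 1.86% of all probes measured on both arrays. The count at least 2-fold higher was 0, against 2.72% of all probes. All 9 lower probes lay in the 6 genes just named, and Rbm39 alone held those at -2.00, -1.26, -1.13 and -1.04. Probes of 1 gene are not separate observations.

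The 9 probes had their annotation in common. The file names each probe for a transcript, and 110 of the 152 member probes are named for a curated RefSeq transcript, while the other 42 are named for an Ensembl transcript, a predicted RefSeq model or a cDNA clone. All 9 were among the 42, where 69.0% of all probes at least 2-fold lower on the array were of that kind. Of the 42, 35 lay below 0, where 52.1% of all such probes did. The median difference was -0.46 over those 42 and -0.06 over the 110. Over all probes of the array measured on both, the corresponding medians were -0.02 for 11778 probes and 0.04 (unrounded 0.035) for 23477. All 42 lay in genes that also had a measured curated RefSeq probe, while only 4610 of the 11778 did. The shares and medians over the array are thus not of fully like probes. This division was made after the values had been seen.

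**Figure D3:**
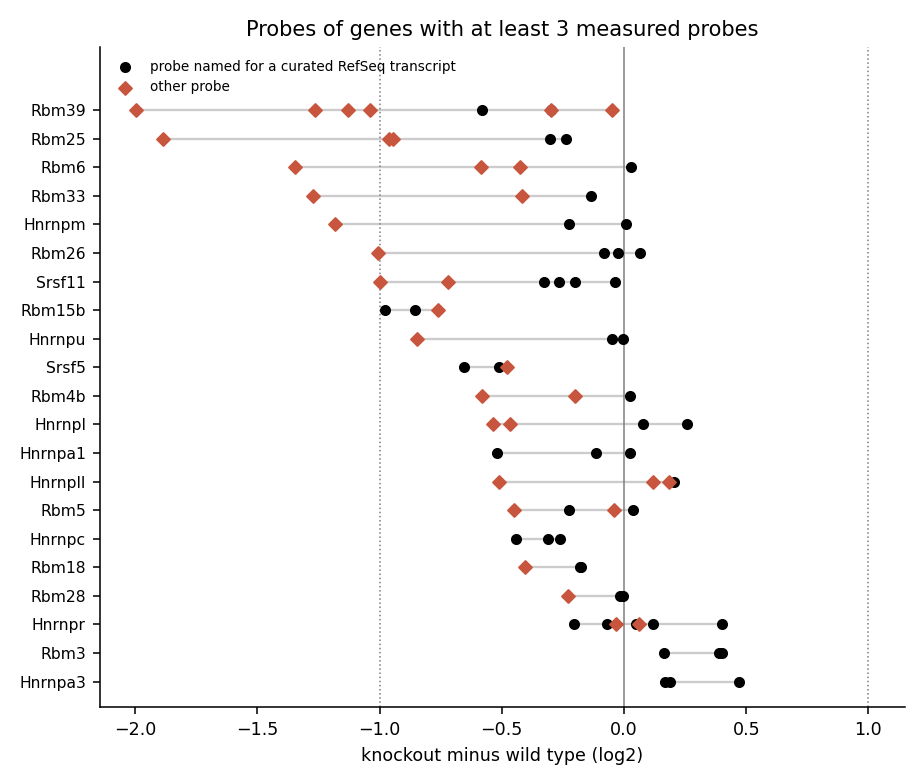
Difference of each measured probe (knockout minus wild type, log2; horizontal axis) in the 21 members with at least 3 measured probes, ordered by their lowest probe; black circles are probes named for a curated RefSeq transcript, red diamonds all other probes, and dotted lines mark 2-fold. The probes beyond the left dotted line are all red, and no probe reaches the right one.

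Within the same gene the contrast can be read without differences between genes. In the 25 members with measured probes of both kinds, the mean of the other probes lay below the mean of the curated RefSeq probes in 18, where this was so in 57.7% of the 3555 such genes on the array. The median of that contrast was -0.22 in the members and -0.07 in all such genes. It was -0.19 in 3 Srsf genes, -0.22 in 15 Rbm genes and -0.28 in 7 Hnrnp genes. In 8 members the other probes lay at least 1.5-fold below, against 15.0% of all such genes, and in 0 members at least 1.5-fold above, against 7.14%. These 8 were Hnrnpm, Rbm25, Rbm26, Hnrnpu, Rbm6, Rbm33, Hnrnpl and Srsf11. Rbm12, Rbm47, Rbm15b and Srsf5 were among the 7 members that ran the other way, with Rbm12 highest at 0.30.

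The kinds of probe also differed in signal, with a median over the 25 genes of 341 for the other probes and 4007 for the curated RefSeq probes on the wild-type array. The median contrast was -0.23 after a loess fit of the difference on signal, -0.23 with only probes at least 4 times the detection limit of each array, and -0.16 after normexp background correction. The content of G and C had a median of 38.3% in the other probes and 40.0% in the curated RefSeq probes.

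With curated RefSeq probes alone, the Rbm median moved up and fewer members were called. The median was -0.16 for Srsf, -0.06 for Rbm and -0.04 for Hnrnp, against 0.04 for the 16095 genes measured by such probes. Below 0 lay 44 of 66 members, against 42.4% of those genes. At least 1.5-fold lower were 2 members, Rbm15b at -0.92 and Hnrnpdl at -0.60, against 3.07%, and at least 1.5-fold higher were Rbm44 and Rbm20, whose values rest on such probes alone. Rbm25 then differed by -0.27, Rbm39 by -0.44, Rbm33 by -0.14, Rbm6 by 0.03 and Hnrnpm by -0.11. Srsf5 differed by -0.58 and Srsf11 by -0.21.

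The probes of Rbm25 allow a reading across 1 splice junction. The NM_027349 probe, whose bases form both ends of a 3360-base interval, read 9382 in wild type and 7777 in the knockout, a difference of -0.24. The ENSMUST00000182255 probes that lie inside that interval read 97.3 and 49.4, a difference of -0.95, and 2145 and 1076, a difference of -0.96. Both inside probes thus lay more than 1.5-fold below the 1 junction probe that they share. Over the whole array 13.9% of 72 such pairs did, these included, with a median over pairs of -0.01. The fainter inside probe, at 49.4, was 3.12 times the detection limit of the knockout array. In Rbm39 the inside probe did not lie below its junction probe. The ENSMUST00000132929 probe that spans 1554 bases differed by -0.30 and the probe inside by -0.05. The gap of 0.25 was near the scanner's error of 0.20 for each of them.

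**Figure D4:**
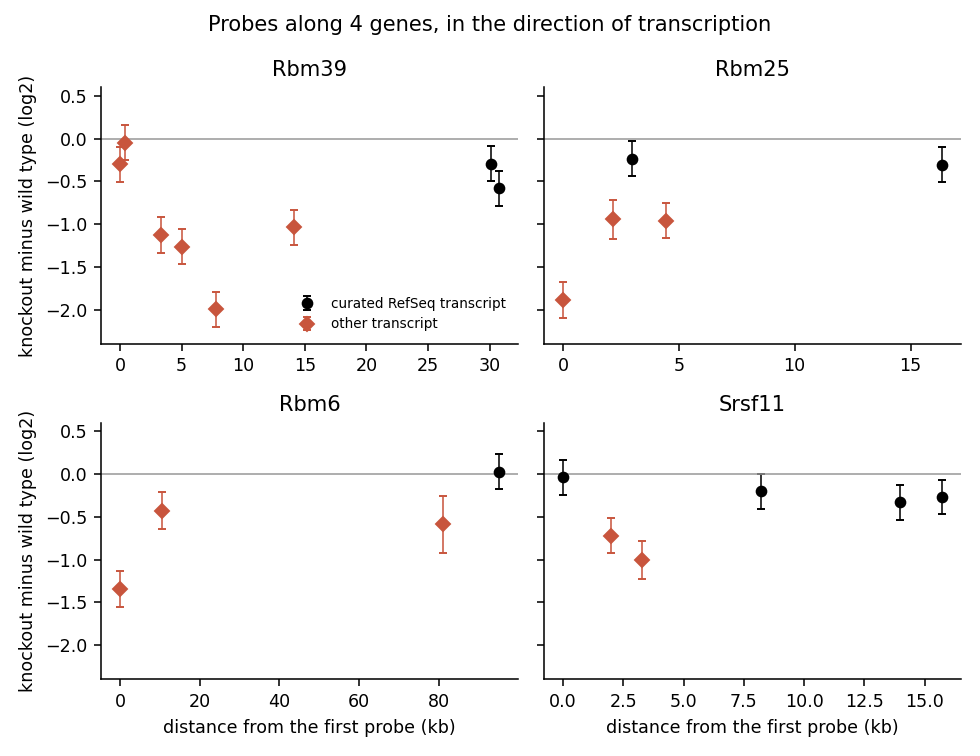
Difference of each measured probe (knockout minus wild type, log2; vertical axis) against its distance in kb from the first probe, in the direction of transcription, in Rbm39, Rbm25, Rbm6 and Srsf11; error bars are the scanner software's error of the difference, black circles are probes named for a curated RefSeq transcript and red diamonds all other probes. The lowest probe lies within the first 7.82 kb in all 4 genes, and in Rbm39 and Srsf11 the first probe is not the lowest.

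Position along the gene overlapped with this division in some genes and was not the same in others. In Srsf11 the first probe, 0 kb, read -0.04, the next, at 1.98 and 3.28 kb, -0.72 and -1.00, and the last, at 15.7 kb, -0.27, so low probes were flanked by higher ones. In Rbm39 the lowest probe lay 7.82 kb from the first, with -0.30 at 0 kb and -0.58 at 30.8 kb. Over the 46 members with several probes, the mean of the other probes lay below the probe nearest the 3′ end in 27, against 46.8% of 7876 such genes on the array. Within a gene the median of the others minus that probe was small, -0.05 over the 46 members, against 0.02 over all such genes. It was -0.11 over 23 Rbm genes and 0.03 over 16 Hnrnp genes. In the 6 members with probes at least 1 log2 unit apart this contrast was below 0, from -0.81 in Rbm6 to -0.29 in Rbm39. In Hnrnpu it was 0.82. Rbm6 and Rbm33 have only the probe nearest the 3′ end as curated RefSeq probe, so position and kind of probe cannot be told apart there. The part of position was not tested.

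A few member probes were well above background on 1 array only. The NM_016809 probe of Rbm3 read 11.1 in wild type, not well above background, and 64.9 in the knockout, at least 5.17-fold higher there when set against the lowest signal well above background, while the gene's other probes differed by at most 0.40. An ENSMUST00000181993 probe of Rbm5 read 52.6 and 10.8, at least 3.25-fold lower on the knockout array, and an ENSMUST00000182445 probe of Rbm6 read 28.3 and 5.69, at least 1.75-fold lower. An ENSMUST00000190965 probe of Rbm44 read 14.9 and 3.43, for which no bound above 1 could be given. Of these 4 probes, the one that was higher is named for a curated RefSeq transcript and the 3 that were lower are not. At the limit of entry, the faintest probe that counted was one of Rbm6 at 33.9 and 22.1, and the XR_388324 probe of Srsf1, at 9.53 and 15.3, did not count.

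Splicing genes outside the families were read from 4 lists, chosen with earlier results known. The activity of SR proteins depends on their phosphorylation, and 8 of 9 genes of the list of SR protein kinases were measured. This list held no phosphatase. All 8 lay below 0, with a median of -0.31, and 2 were at least 1.5-fold lower, where 45.2% and 5.19% of all genes were, the shares against which the counts of the other lists are read as well. These were Clk4, at 440.1 and 285.6, a difference of -0.59, and Clk1, at 8444 and 5502, also -0.59, both nuclear kinases of SR proteins. Both values sat at the limit of 1.5-fold, a log2 difference of 0.585, and fell short of it on the spike-in scale, at -0.48 for each. The highest were Srpk1 and Clk2, at -0.03 and -0.10, and both came out above 0 on the spike-in scale.

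The SR-related and Tra2 factors, most of which carry a domain rich in arginine and serine, lay lowest of the 4 lists. All 20 were measured, with a median of -0.44, 17 below 0 and 6 at least 1.5-fold lower. Tra2b, a splicing activator, read 11932 and 4282, a difference of -1.45, from probes at -2.48 and -0.41. Rsrc2 read 1004 and 516, a difference of -0.93, with all 6 probes between -1.49 and -0.50. Rsrp1 stood at the other end, at 8069 and 11182, a difference of 0.50, followed by Srek1ip1 at 0.15.

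The core spliceosome was near all genes. Its 55 genes, all measured, had a median of -0.04, 32 lay below 0, and 3 were at least 1.5-fold lower, about the share of all genes. Dhx15, a helicase of spliceosome disassembly, differed by -0.74 with probes from -1.30 to -0.03, and Snrnp48, a protein of the minor spliceosome, by -0.62 with probes from -1.08 to -0.37. Snrnp48 fell short of 1.5-fold on the spike-in scale (-0.51), with normexp (-0.37), with the strict filter on dim probes (-0.38) and with curated RefSeq probes alone (-0.40). Prpf19 and Sf3a2 were highest, at 0.44 and 0.25. Of the list of other RNA-binding regulators 39 of 40 were measured, with a median of -0.06, 24 below 0 and 3 at least 1.5-fold lower. Ptbp2 differed by -0.93 with probes from -1.36 to -0.26, and Khdrbs3 by -0.89 with probes at -2.02 and 0.24, while Nova1 and Celf2 were highest at 0.44 and 0.37.

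**Figure D5:**
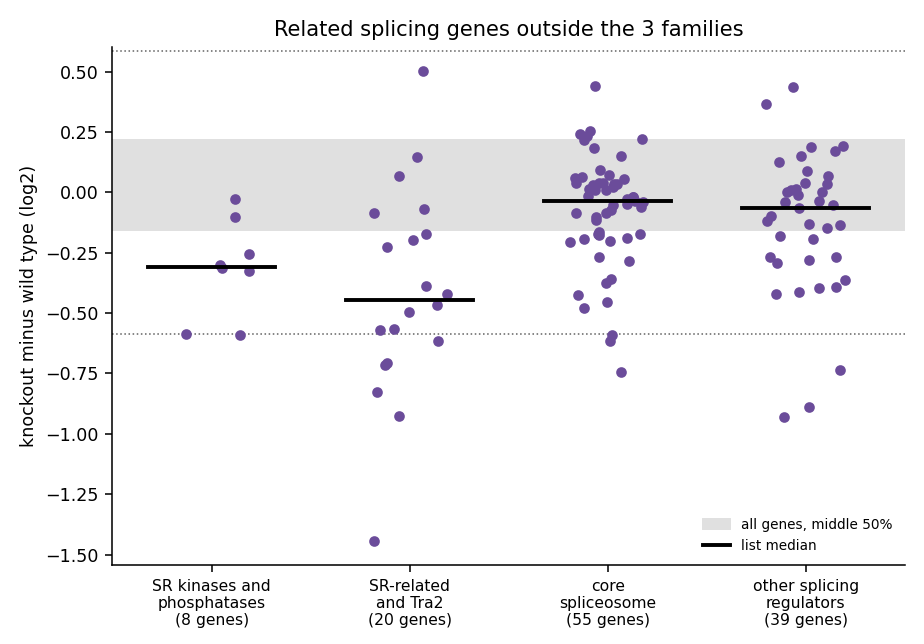
Difference of each measured gene (knockout minus wild type, log2; vertical axis) in 4 lists of splicing genes outside the families; points are genes, black bars list medians, the grey band is the middle 50% of all genes and dotted lines mark 1.5-fold. All 8 kinases lie below 0, and Tra2b is the lowest point at -1.45. The axis label of the kinases also names phosphatases, but that list holds none.

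The probes were also divided by kind in these lists. In the 51 of their genes with probes of both kinds, the other probes lay below the curated RefSeq probes in 41, at least 1.5-fold below in 17 and at least 1.5-fold above in 0, with a median contrast of -0.26. All 14 SR-related and Tra2 factors with both kinds ran in that direction, with a median of -0.44, and so did 13 of 15 core spliceosome genes, with a median of -0.33. Among the other RNA-binding regulators 11 of 18 did, with a median of -0.10, near the 57.7% and -0.07 of all such genes. Of the kinases 3 of 4 did. At least 2-fold lower were 20 of 83 other probes of the 4 lists, against 3.83% of such probes on the array, and 2 of 227 curated RefSeq probes, against 0.865%, which is about that share. All 83 lay in genes that also had a measured curated RefSeq probe, as only 4610 of the 11778 such probes on the array did. With curated RefSeq probes alone Tra2b differed by -0.41, Rsrc2 by -0.55, Dhx15 by -0.03 and Ptbp2 by -0.26, none of them at least 1.5-fold apart.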

How the data were processed

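Unfertilised mouse oocytes were pooled by genotype and measured on 1 array each, as grouped by the sample labels. Deposited for each array is a scanner table of linear spot intensity, made by Agilent Feature Extraction 10.7.1.1 per the file headers (9.5.1.1 per the submitters' processing notes), background-subtracted and detrended within the array. The deposited series-wide table is linear intensity too; once sorted, its columns matched within 0.0243%, so its values are quantile normalised between arrays, and its differences followed the scanner values with r = 0.997 across probes. It served as an alternative. Scale and direction are known, and no centring of genes is seen.

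Control spots and spots with an outlier flag were dropped, log2 processed intensities were averaged per probe, and the 75th percentile of the array (signals of 808 and 790) was subtracted. Well above background were 66.0% of gene probes in wild type and 64.5% in the knockout, and 0 were saturated. For 286 probes printed at 10 spots, the SD of the difference between spots had a median of 0.04 and was at most 0.20. Fold limits were 1.5 and 2. No test was possible.

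The members and lists were chosen with earlier results of these data known. Named are all Srsf genes, Rbm and Hnrnp genes at least 1.5-fold apart or with probes at least 1 log2 unit apart, members well above background on 1 array, the 2 highest and 2 lowest of each related list, and Mul1; other members were named after their values were seen, as relatives of these or for their role. Gene names are those in the files. Of the 70 member names 60 were found in a RefSeq table of build GRCm38.p6, and all 144 probes of these lay on the chromosome and strand given there. Alternatives were other scalings, quantile normalisation, loess (span 0.3), normexp (offset 50), the deposited series-wide values, no filter or a strict filter on dim probes, other ways to join probes and, added after the data had been seen, curated RefSeq probes only and the contrast of probe kinds. Scripts were tested on simulated data. Python 3.11.15, numpy 2.4.6, pandas 2.3.3, statsmodels 0.14.6, R 4.3.3 and limma 3.58.1 were used.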

Additional observations from a re-analysis of the deposited data

How the results depend on the processing

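The family medians ran from -0.20 to -0.05 for Srsf, from -0.16 to -0.04 for Rbm and from -0.06 to 0.07 for Hnrnp over 12 alternatives, and the median contrast of probe kinds from -0.24 to -0.16 over 9. Without the filter on dim probes the median of all genes moved to 0.11, 1 Srsf and 10 Rbm genes were at least 1.5-fold apart, 1 Srsf and 10 Rbm genes had probes at least 2-fold apart, and Rbm20 (-0.13) and Rbm44 (-0.30) turned sign; the added probes are not above background. With the strict filter 3 Rbm genes were at least 1.5-fold apart and 0 Hnrnp genes had probes 2-fold apart. With normexp these counts were 3 Rbm genes apart, and 3 Rbm and 0 Hnrnp genes with probes apart. With spike-in scaling 0 Hnrnp genes were 1.5-fold apart. With curated RefSeq probes only, an alternative chosen after seeing the data, 3 Rbm genes were 1.5-fold apart, 0 Rbm and 0 Hnrnp genes had probes 2-fold apart, and Khdrbs3 turned to 0.24, as it did with the brightest probe per gene (0.24). For changes other than those made by fewer or other probes the cause was not tested. Of the values of named genes under alternatives, 510 moved by less than the largest spot SD of 0.20 and 48 by more without a called value turning sign. No paired analysis was possible because each genotype has 1 array and no test was made. Probes near 12.9 (wild type) and 15.8 (knockout), the lowest signals well above background, limit what faint members can show.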
